A study of Rattus norvegicus with 6 samples.

Results

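The genes described here encode granins and the proteins that cut and carry peptide precursors in the dense-core granules of neuroendocrine cells. They are 9 genes taken by symbol, Chga, Chgb, Scg2, Scg3, Scg5, Vgf, Pcsk1, Pcsk2 and Npy, out of 14390 genes in a deposited table of annotated chromatin immunoprecipitation (ChIP-seq) peaks. All 9 had at least 1 peak, and together they held 236 of the 159452 peaks. The cells were PC12, a line from a rat adrenal pheochromocytoma, at passages 18 to 20. They stably carried either the empty vector pCDNA3 (EV) or human α1ACT (titled Q11), a transcription factor translated from the CACNA1A messenger RNA. Each line was precipitated with anti-FLAG M2 or with an antibody labelled 1804, or kept as input, and each of these 6 groups held 1 library. Both lines were grown in the same medium without further treatment. Neither the target of 1804 nor whether a line is a single clone is stated, and the series text mentions tissue at day 3 where the sample labels name only PC12.

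Granins are acidic proteins that aggregate with calcium in the trans-Golgi network and help form secretory granules, where prohormone convertases cut them and other precursors at paired basic residues. In chromaffin cells, the cells PC12 derives from, the granules store catecholamines together with granins, neuropeptide Y and their fragments, and release them on calcium entry. A peak list records where DNA was enriched and not whether a gene is expressed, so the label PC12 could not be checked from it.

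Peaks at these genes came from a single list, that of α1ACT cells with 1804. None of the 236 peaks overlapped a peak of the α1ACT M2, EV 1804 or EV M2 lists by 1 bp or more. For the EV lists the table could not show otherwise, since none of their 516 peaks overlapped any of its peaks. Of the 2278 peaks of the α1ACT 1804 list that the table leaves out, 194 overlapped an EV peak and 2084 did not, and none lay within 50 kb of a TSS of the 9 genes. The closest peak of those lists lay 1131 kb from a peak of these genes. The 3 lists held 81, 272 and 244 peaks against 161730 in the α1ACT 1804 list. Of the 14390 genes only 2 (0.0139%) had a peak of any of these 3 lists within 1000 bp of a transcription start site (TSS), and 0 of the 9 did. The lowest signal in those lists was 14.0, and of the 236 peaks only the highest peak of Vgf was above it. Read depth and the scaling between lists are unknown, so the absence of these peaks from the EV lists cannot be told apart from a difference in depth or scale. With 1 library a group no difference between the lines has a replicate check, and no test was made. The signal is the authors' value per peak and serves below only to order peaks within the α1ACT 1804 list, where its median was 3.02 and its upper 10% began at 5.28.

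A peak lay within 1000 bp of the TSS in 5 of the 9 genes: Chga, Chgb, Scg3, Vgf and Pcsk2 (55.6%, exact 95% Clopper-Pearson interval 21.2 to 86.3, counting error only). The same held for 43.2% of all genes of the table and for 32.9% of 18539 curated protein-coding genes, and the interval of the 9 genes holds both values. Chga, Chgb, Vgf and Pcsk2 had 2 such peaks each, and 15.1% of the genes of the table had 2 or more. Chga, Chgb and Vgf had a near peak in the upper 10% by signal, as 19.7% of genes did. Among the 5 genes with a near peak the median of the highest near signal was 6.56, against 4.92 over the 6219 genes of the table with one. Of the 9 near peaks 8 lay over or downstream of the TSS, where 66.6% of all near peaks lay.

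**Figure D1:**
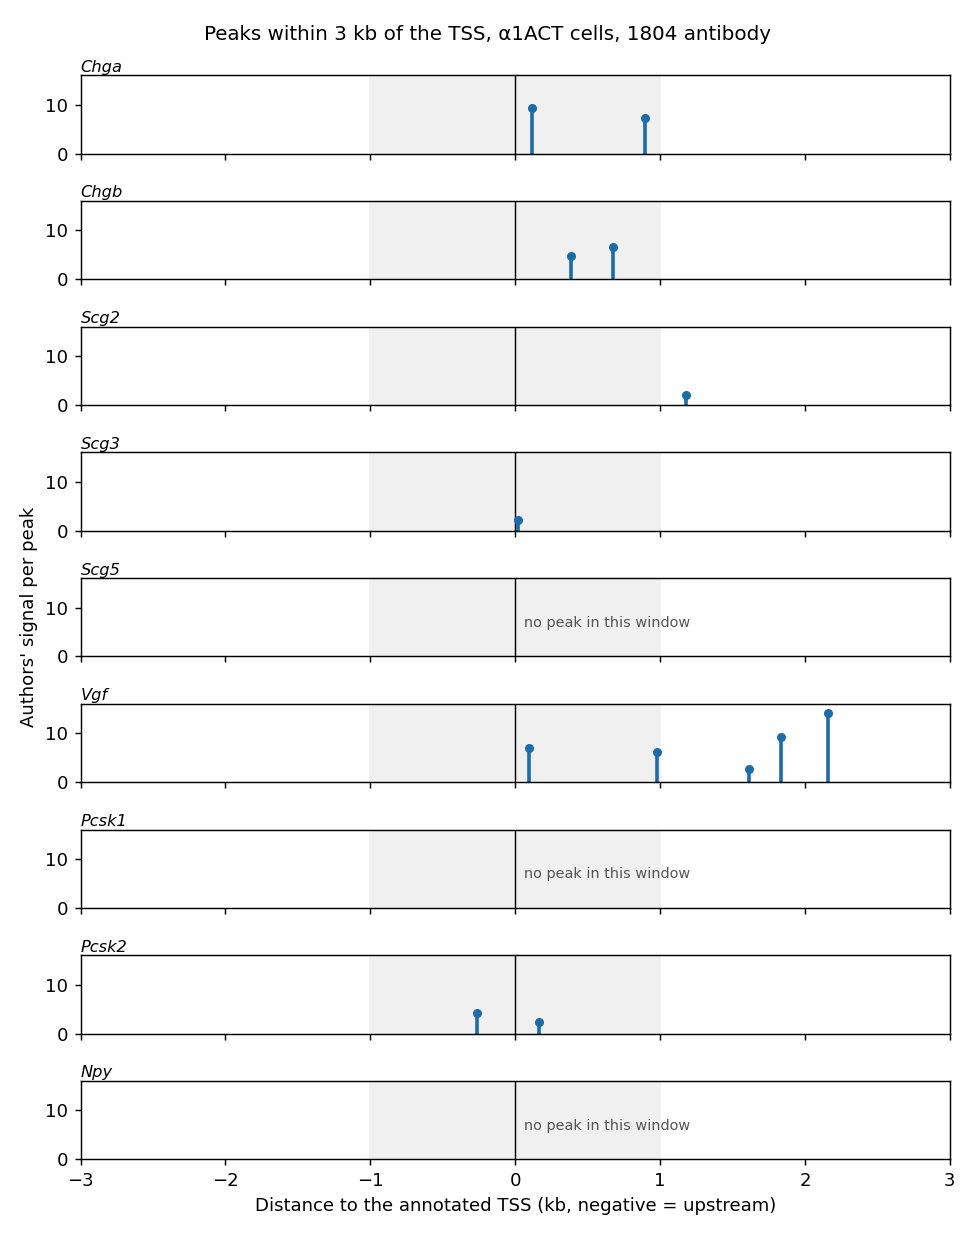
Signal of each peak within 3 kb of the annotated TSS (vertical axis, the authors' value per peak) against its distance to that TSS in kb (horizontal axis, negative upstream, the window within 1 kb shaded) for the 9 genes in the α1ACT 1804 list. Each stem is 1 peak. Chga, Chgb, Scg3, Vgf and Pcsk2 have stems in the shaded window, the only stem upstream of a TSS within the 3 kb plotted is that of Pcsk2, and the highest stem is that of Vgf, 2162 bp downstream.

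Chga encodes chromogranin A, a granin with a part in granule formation. It lies on chromosome 6 from 135645155 to 135656373 (rn5, plus strand) and was assigned 8 peaks. Its strongest peak spanned 135645219 to 135645274, 119 bp past the TSS, and its signal of 9.26 exceeded 98.9% of the annotated peaks. A second, 896 bp downstream, had 7.24. The peak at 119 bp gave Chga the highest near signal among the 9 genes, above 89.4% of the genes with a near peak. Another peak inside the gene, labelled intron 10 of 10, had 4.02, and a single peak 17277 bp upstream had 4.49. The other 4 peaks assigned to Chga lay inside Itpk1, an inositol phosphate kinase gene, 16.2 to 67.7 kb from the Chga TSS. Their signals ran from 2.26 to 6.86.

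Chgb encodes chromogranin B, another core granule protein, on chromosome 3 from 131912038 to 131925378 (plus strand). Its near peaks lay 384 bp downstream with a signal of 4.79 and 673 bp downstream, at 131912656 to 131912711, with 6.56. Another peak, in exon 4 of 5 and 11196 bp from the TSS, had 5.66, above 92.1% of annotated peaks. The 3 upstream peaks, at 20076, 77900 and 101613 bp, had 2.63, 3.86 and 3.41. The peaks inside Chgb were thus the higher ones, each above the 3 intergenic peaks.

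Scg2 and Scg3 differed in where their peaks lay, and in both the peak closest to the TSS had a low signal. Scg3, whose product binds chromogranin A and carries it to the granule membrane, had a peak 19 bp downstream of its TSS on chromosome 8, from 82242262 to 82242317. Its signal, 2.25, exceeded the highest near signal of only 3.46% of the genes that had a near peak. Its other 4 peaks lay in a run of 1.89 kb some 30.0 to 31.9 kb into the gene, with signals of 2.43 to 3.75. Scg2 encodes secretogranin II, the precursor of secretoneurin. Its only peak inside the gene lay on chromosome 9 from 84995816 to 84995871. At 1178 bp into the gene it fell just past the limit used, and its signal was 2.11. Of the other 18 peaks of Scg2, 17 lay beyond the 3' end of the gene and 1 upstream.

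Vgf, a granin-like gene induced by nerve growth factor in PC12 cells, carried 5 peaks, all inside its 3.02 kb transcript on chromosome 12 from 24689888 to 24692911 (minus strand). From the TSS inwards they lay at 94, 979, 1615, 1834 and 2162 bp, with signals of 6.96, 6.06, 2.59, 9.24 and 14.1. Signal was thus highest at the peak farthest from the TSS, and 4 of the 5 peaks were in the upper 10% of the list. The peak at 24690694 to 24690749, with 14.1, was above 99.8% of annotated peaks and the highest of all 236. The deposited table labels all 5 as promoter, since it gives that name to peaks up to 3 kb from a TSS. Vgf held 1.65 peaks per kb, and stood in place 8 by this density among 1205 genes with at least 5 peaks inside, whose median was 0.0618. This order was drawn up after the Vgf values were seen, and a short gene reaches a high density with few peaks. Merging peaks at most 500 bp apart left 3 at Vgf.

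The convertases and their helper gave 3 different pictures. Pcsk2 encodes PC2, the convertase that completes the cutting of many neuropeptides. Among the 9 genes it alone had a near peak upstream of the TSS, on chromosome 3 from 144058855 to 144058910. This peak, 266 bp upstream, had 4.23 as its signal. A second near peak, 161 bp downstream, had 2.44. Of its 34 peaks 12 lay in its introns, 8 of them in intron 1 of 11, and 20 were distal intergenic. None of the 34 was in the upper 10% by signal. Scg5 encodes 7B2, the chaperone that keeps PC2 from acting early. It had a single peak, on chromosome 3 from 111834063 to 111834118, 22019 bp into the gene. Its signal of 2.56 was the lowest maximum among the 9 genes.

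Pcsk1 encodes PC1/3, the convertase that makes the first cuts, and held 148 of the 236 peaks (62.7%). Only 92 of the 14390 genes had more. No peak lay near its TSS: the closest was 7566 bp downstream, with a signal of 3.21. Of its peaks 4 lay in introns and 144 (97.3%) were distal intergenic, 76 upstream and 68 beyond the 3' end, over 1.54 Mb of chromosome 2. Assignment goes to the nearest gene, so a gene with distant neighbours can collect more peaks. The distance from Pcsk1 to its neighbours was not measured, and its part in the count was not tested. Whatever their assignment, 24 peaks of the list lay within 50 kb of the Pcsk1 TSS, more than at 98.9% of genes (median 5). Within 500 kb lay 117, where the median gene had 55. The highest peak, at 111032631 to 111032686, lay 224956 bp past the TSS with 8.66. The median of the 148 was 2.98, near that of the whole table.

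Most peaks of Scg2 and 75 of the 148 of Pcsk1 stood in tight groups, as did 39.2% of all annotated peaks. A run was taken as 4 or more peaks with gaps of at most 2000 bp, a definition chosen after seeing the data. Scg2 had 17 of its 19 peaks in 3 runs downstream of the gene, of 7 peaks at 53.9 to 58.2 kb, 6 at 84.9 to 89.8 kb and 4 at 122 to 124 kb. Their highest signals were 4.42, 5.70 and 6.38. Pcsk1 had 75 of its 148 peaks in 12 runs, of which 9 were upstream. The run with the most peaks held 13 over 6.33 kb, at 31.5 to 37.8 kb upstream, with a highest signal of 5.71. Pcsk2 had 1 run, of 9 peaks at 109 to 115 kb upstream. The 5 peaks of Vgf and 4 of the 5 of Scg3, described above, also met the definition, while Chga, Chgb, Scg5 and Npy had no run. Over all annotated peaks 39.2% were in runs, against 46.6% for the 9 genes, 50.7% for Pcsk1 and 39.8% for the other 8 genes. Peaks of 1 run are not independent of each other, so no interval is given for these shares and the difference was not tested.

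**Figure D2:**
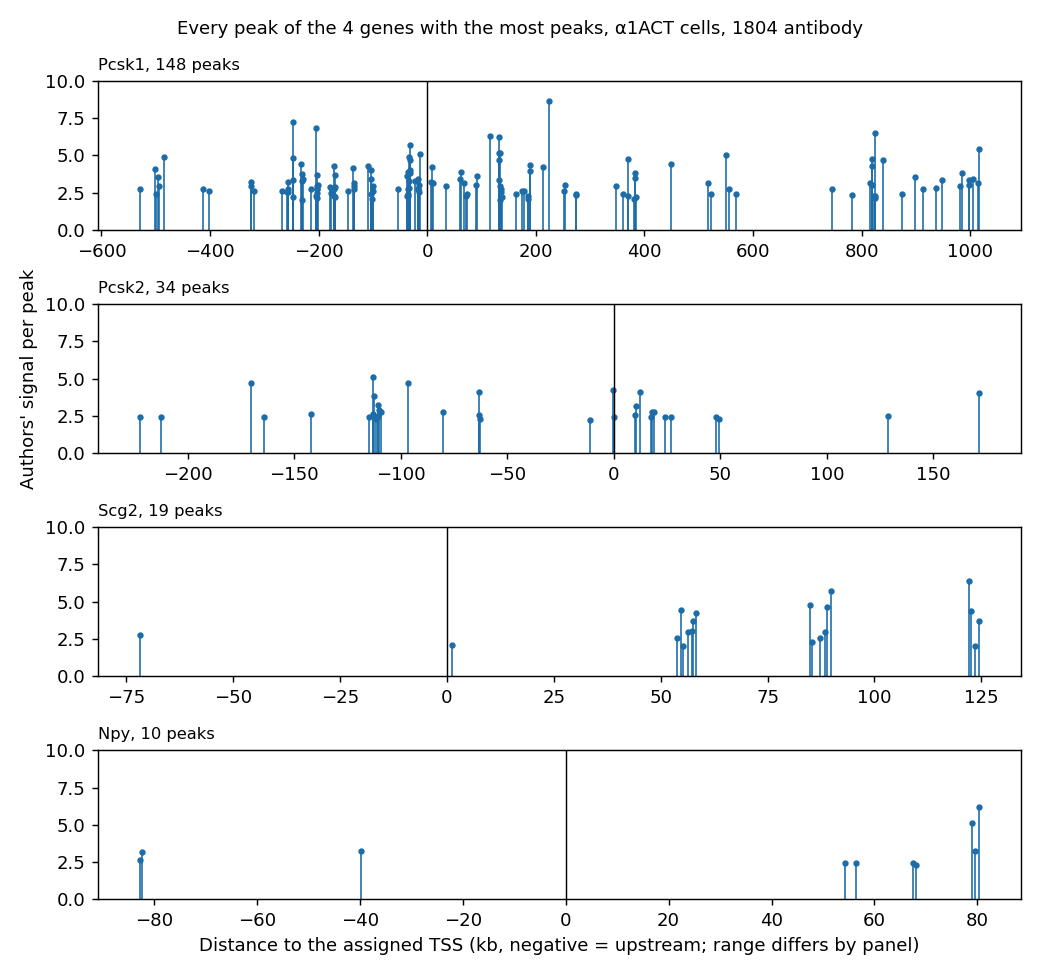
Signal (vertical axis, the authors' value per peak) against distance to the assigned TSS in kb (horizontal axis, range set by panel) for every peak of Pcsk1, Pcsk2, Scg2 and Npy; each stem is 1 peak. The 3 runs of Scg2 between 53.9 and 124 kb downstream stand apart, and the Pcsk1 peaks cover 1.54 Mb on both sides of the gene.

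Npy encodes neuropeptide Y, which chromaffin and sympathetic cells store and release with catecholamines. All 10 of its peaks were distal intergenic. The deposited table places the Npy transcript at 2 positions on chromosome 4, from 144233753 to 144240954 and from 144247802 to 144255002. Neither copy held a peak, and the closest lay 39816 bp upstream of the first. Both copies fell in 1 stretch of 108 kb without a peak of the α1ACT 1804 list, while 8.92% of genes had their TSS in a longer one and the median was 27.7 kb. How reads that match 2 places were treated is not given in the sources used here, and its part in the absence of peaks was not tested. The highest Npy peaks, 80218 and 79010 bp downstream of the second copy, had signals of 6.18 and 5.15. The other 8 ran from 2.27 to 3.21.

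**Figure D3:**
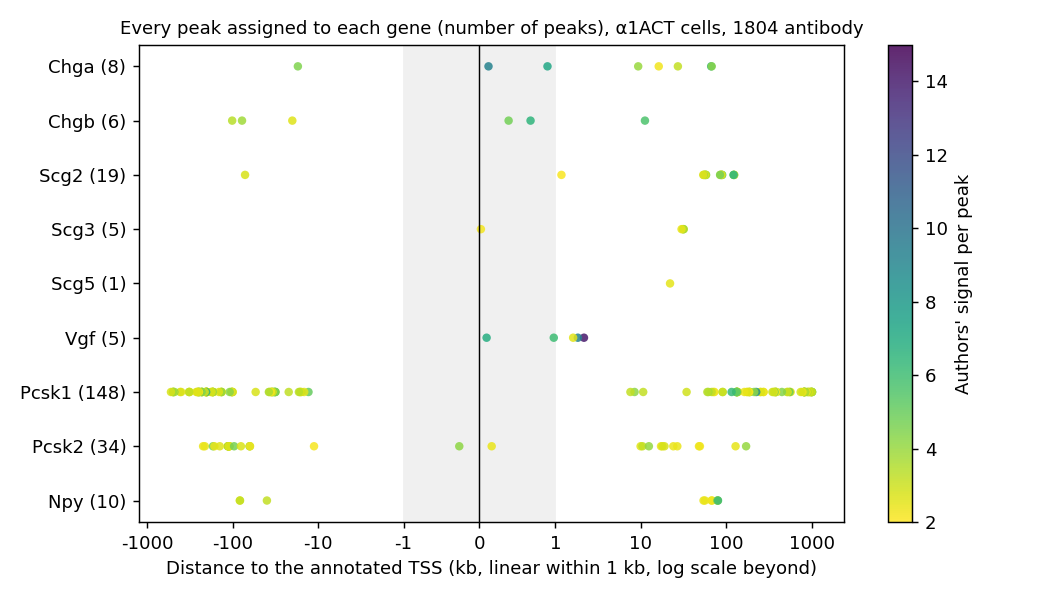
Every peak assigned to the 9 genes (rows, with the number of peaks) by distance to the TSS in kb (horizontal axis, linear within 1 kb and log scale beyond, negative upstream), coloured by the authors' signal. Vgf has all of its 5 peaks within 2162 bp downstream, whereas the 10 peaks of Npy all lie 39.8 kb or farther away.

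The highest signal followed a different order from the number of peaks. By highest signal the order was Vgf with 14.1, Chga 9.26, Pcsk1 8.66, Chgb 6.56, Scg2 6.38, Npy 6.18, Pcsk2 5.10, Scg3 3.75 and Scg5 2.56. These are single values from 1 library, so whether neighbours in this order differ could not be tested. Each is the highest of 1 to 148 peaks, and the part of peak number in this order was not tested. By median signal the order ran Vgf 6.96, Chga 4.40, Chgb 4.33, Scg3 3.40, Scg2 3.05, Pcsk1 2.98, Npy 2.89, Pcsk2 2.60 and Scg5 2.56. By number of peaks it was Pcsk1 with 148, Pcsk2 34, Scg2 19, Npy 10, Chga 8, Chgb 6, Vgf and Scg3 5 each and Scg5 1, where the median gene had 4. In the upper 10% by signal were 4 of the 5 Vgf peaks, 3 of 8 for Chga, 2 of 6 for Chgb, 8 of 148 for Pcsk1, 2 of 19 for Scg2 and 1 of 10 for Npy. In all, 9 of the 236 peaks (3.81%, 1.76 to 7.12) lay near a TSS, or 9 of 88 (10.2%, 4.78 to 18.5) without Pcsk1, beside 5.75% of all annotated peaks. Peaks of 1 gene are not independent of each other, so these intervals cover counting error only and are too narrow. No difference from all annotated peaks was tested.

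Promoter sequence is shown for 4 genes whose peaks contrast: Vgf and Pcsk2 with peaks near the TSS, Scg2 and Npy without. RefSeq promoters on GRCr8 were matched by symbol for 7 of the 9 genes, all but Chga and Pcsk1. Each line gives the 250 bases before the annotated start, 5′ to 3′ on the gene's strand. Capitals mark matches on either strand to the cyclic AMP response element (CRE) TGACGTCA, the AP-1 site TGANTCA, the GC box GGGCGG, the CCAAT box CCAAT, the TATA box TATAAA, the E-box CACGTG bound by Myc and USF and the Egr1 site GCGNGGGCG. The peaks are on rn5, the sequences on GRCr8, and the start sites of the 2 builds were not matched.
Vgf, chr12:25277021-25277270, minus strand: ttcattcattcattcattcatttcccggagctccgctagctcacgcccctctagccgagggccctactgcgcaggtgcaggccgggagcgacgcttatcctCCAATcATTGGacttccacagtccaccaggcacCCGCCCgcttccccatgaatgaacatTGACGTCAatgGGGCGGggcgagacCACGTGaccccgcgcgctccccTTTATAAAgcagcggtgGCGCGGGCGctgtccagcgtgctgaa
Scg2, chr9:88256867-88257116, minus strand: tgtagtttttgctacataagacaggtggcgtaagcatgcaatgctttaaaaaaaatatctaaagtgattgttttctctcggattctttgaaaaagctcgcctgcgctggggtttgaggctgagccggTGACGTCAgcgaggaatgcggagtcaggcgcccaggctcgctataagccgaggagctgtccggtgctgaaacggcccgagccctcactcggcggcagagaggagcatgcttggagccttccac
Pcsk2, chr3:151333688-151333937, plus strand: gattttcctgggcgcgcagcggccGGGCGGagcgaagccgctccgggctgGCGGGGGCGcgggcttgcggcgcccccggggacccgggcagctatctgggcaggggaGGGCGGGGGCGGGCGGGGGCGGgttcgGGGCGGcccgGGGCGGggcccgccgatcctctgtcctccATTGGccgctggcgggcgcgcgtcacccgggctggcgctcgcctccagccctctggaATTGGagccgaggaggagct
Npy, chr4:80211861-80212110, plus strand: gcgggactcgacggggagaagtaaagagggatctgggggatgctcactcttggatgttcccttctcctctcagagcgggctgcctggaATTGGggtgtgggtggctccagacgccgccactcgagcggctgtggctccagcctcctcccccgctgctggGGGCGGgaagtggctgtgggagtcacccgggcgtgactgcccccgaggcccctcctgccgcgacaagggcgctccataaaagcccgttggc

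Vgf and Scg2 shared a full CRE, the site bound by CREB, a factor that cyclic AMP or calcium signals activate. It began 90 bp before the start in Vgf and 123 bp before it in Scg2. Among the 7 matched genes these were the 2 with a match, and 1.83% of all 33469 promoters of this length (300 bp, with 50 bp after the start) hold it. The 2 genes differed in peaks, since Vgf had a peak 94 bp from its TSS and Scg2 had none within 1000 bp. The half-site TGACG, which every CRE contains, was in 5 of the 7 (Scg2, Scg3, Scg5, Vgf and Pcsk2) and in 21.2% of all promoters. GGGCGG was in 5 of 7 (33.1% of all), with 7 matches in Pcsk2, some overlapping its 3 matches to GCGNGGGCG. That motif was in Pcsk2 and Vgf (4.98% of all) and CCAAT in 4 of 7 (37.5%). TATAAA (14.2% of all) and CACGTG (6.42%) were each in Vgf alone of the 7, and TGANTCA in 0 of 7 (7.33%). The A+T share of the 300 bp window ran from 26.7% in Pcsk2 to 50.0% in Scg2, with a median of 48.3% over all promoters. A match is a description of the letters and not evidence that a factor binds.

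Other genes of the same pathway were taken from 5 lists. Of 113 matched genes, 46 had a peak within 1000 bp of the TSS (40.7%, 31.6 to 50.4), where genes absent from the table count as without a peak. The background on that footing is the 32.9% of curated protein-coding genes, which lies within this interval. Among the 97 of these genes that are in the table the share was 47.4% (37.2 to 57.8), beside 43.2% of all genes of the table. Proteins that form granules had it in 12 of 20 (60.0%, 36.1 to 80.9). They were led by Rundc3a with a signal of 12.8 and Arfip1, whose product binds Arf GTPases at the Golgi, with 9.64. Proteins of the granule membrane and of exocytosis had it in 16 of 27 (59.3%, 38.8 to 77.6). With absent genes counted as without a peak, both of these intervals lay above 32.9%. Counting only genes in the table, 12 of 18 and 16 of 25 had a near peak, beside 43.2% of all genes of the table. No interval was computed on that footing, so whether these shares stand apart from 43.2% is not shown. The 5 lists were written with earlier results of these data known, and this is a description, with no test. Cadps, the priming factor of granule release, led with 12.0 and Rab27a, a GTPase of granule docking, followed with 9.06. Vamp2, the vesicle SNARE, had 4 near peaks, the highest with 5.28. The median of the highest near signal was 6.40 for granule formation and 5.52 for membrane and exocytosis, where all genes had 4.92.

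Other processing enzymes had a near peak in 10 of 22 (45.5%, 24.4 to 67.8), but with a lower median signal of 2.99. With peaks at or above the median signal of the list 4 of the 22 had one, beside 26.9% of curated protein-coding genes, with no interval computed and no test. At that limit the counts were 15 of 27 for membrane and exocytosis and 11 of 20 for granule formation. They were 6 of 39 for other precursors and 0 of 6 for the Npy family. Among the processing enzymes the highest near signals belonged to the aminopeptidase gene Rnpep, with 10.6, and to Cpz, a carboxypeptidase gene, with 6.91. Pcsk7, a convertase of the constitutive pathway, had 4 near peaks, the highest with 6.18. Other neuropeptide precursors had a near peak in 7 of 39 (17.9%, 7.54 to 33.5), the lowest share but for the Npy family. With absent genes counted as without a peak, its interval reached past the 32.9% of curated protein-coding genes. Adm, the adrenomedullin gene, led with 10.5, ahead of Npb, the neuropeptide B gene, with 5.58. Of the Npy family and its receptors 1 of 6 had a near peak, that of the receptor gene Npy5r, with 2.43. Among genes in the table alone, 10 of 20 processing enzymes, 7 of 30 other precursors and 1 of 5 of the Npy family had one. All genes of the table had 43.2%. On that footing no interval was computed and no difference was tested.

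**Figure D4:**
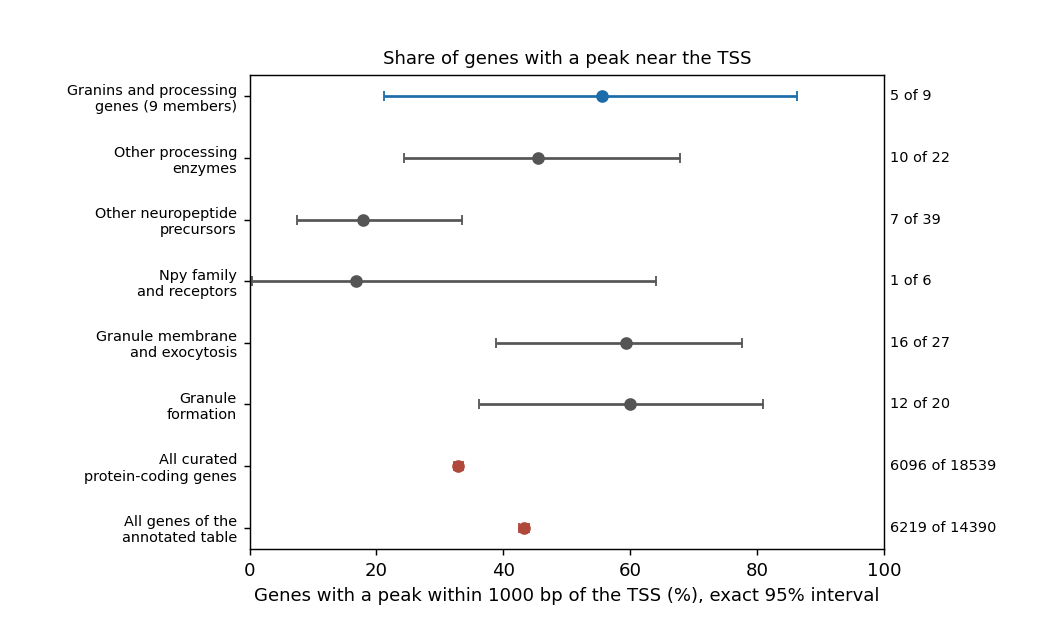
Share of genes with a peak within 1000 bp of the TSS (horizontal axis, percent) for the 9 genes, for 5 lists of other pathway genes, for all curated protein-coding genes and for all genes of the table; points are shares, bars exact 95% intervals, and the counts stand at the right. Other neuropeptide precursors have 7 of 39 and granule formation genes 12 of 20, and the bar of the 9 genes runs from 21.2 to 86.3%.

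Introns are numbered here as in the deposited table. In 823 of 824 minus-strand transcripts with peaks in several of their introns the number fell with distance from the TSS, so the table counts from the lower coordinate. The 4 Scg3 peaks labelled intron 2 of 11, the Scg5 peak labelled intron 4 of 5 and the Pcsk1 peaks labelled introns 5 and 12 of 13 are therefore counted from the 3' end of those genes. In all 818 plus-strand transcripts with such peaks the number rose, as for Pcsk2.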

How the data were processed

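Peaks were taken as the authors deposited them, in 4 lists, 1 per precipitated library, and in an annotated table of 159452 peaks, all 56 bp wide. Signal per peak and −log10 q-value per peak are the authors' deposited values; only signal was used, and its scaling is not given in the sources used here. Build rn5, ChIPseeker, DiffBind, HOMER, BWA 0.7.5a and FastQC 0.11.2 appear in the submitters' processing notes, with no role stated, and the file names point to spp. Each table row was joined to the α1ACT 1804 list by chromosome and start, and rows with the 9 symbols were kept. Gene, feature and distance are the authors' annotation, per the file headers. The distance runs from 1 edge of the peak. Counts used Python 3.11.15, pandas 2.3.3 and scipy 1.17.1, and were checked on simulated peaks. The members, the lists of other genes and the motifs were chosen with earlier results of these data known. Of 115 listed pathway genes 113 were matched to RefSeq names (GRCr8), used for names only. Named were all members, the 2 genes of each list with the highest near signal and those with 4 or more near peaks. Alternatives were other distances, signal limits, merged peaks and other overlap rules. One planned motif is not reported here.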

Additional observations from a re-analysis of the deposited data

How the results depend on the processing

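With peaks limited to the upper 10% by signal, 3 of the 9 genes (Chga, Chgb and Vgf), 5 of their near peaks and 23 of the 113 other pathway genes remained near a TSS. At this limit 19.7% of all genes of the table had a near peak, and the 9 genes held 20 of their 236 peaks in all. At or above the median signal they held 111, inside the gene or within 50000 bp of the TSS 62, and without Pcsk1, chosen after seeing the data, 88. Near limits of 500, 3000 and 5000 bp gave 5, 6 and 6 of the 9 genes, Scg2 being the gene gained, while 38.4, 52.3 and 59.1% of all genes had a peak. Distance from the peak centre, chosen after seeing the data, moved 1 Vgf peak past 1000 bp and no gene. No member peak lay within 10000 bp of a peak of the other lists. Of the 38 alternative values for single lists and motifs, 9 differed by more than 1.5 times, all for lists with 1 to 12 genes near a TSS. In the upper 10% by signal 3 of 22 other processing enzymes, 2 of 39 other precursors and 7 of 20 granule formation genes had a near peak. At or above the median signal 4 of the 22 processing enzymes did, and 35.3% of all genes of the table. The list counts include genes absent from the table, which the 19.7 and 35.3% leave out. No paired analysis was possible because each group holds 1 library, and for the same reason none could be left out. Read depth is unknown, so no limit of detection can be given.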

Other observations

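The distance in the deposited table was measured from the start of the peak for every upstream peak and from its end for every downstream peak, on both strands. For plus-strand genes that is the far edge and for minus-strand genes the near edge, so equal places differ by up to the width of a peak. For the 9 genes the choice touched the Vgf peak listed at 979 bp, whose centre lay 1006.5 bp from the TSS.

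Counting peaks whatever gene they were assigned to gave the same number of the 9 genes with a near peak, 5. This count took every peak of the α1ACT 1804 list within 1000 bp of a TSS by its nearer edge. It included the 2278 peaks that the table leaves out. Of all genes it gave 6392 in place of 6219, and the parts of assignment, edge and added peaks in that change were not separated.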
